A study of Mus musculus with 2 samples.

Results

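The spots described here are those with the largest share of vasopressin (Avp) and oxytocin (Oxt) transcripts in a pair of spatial transcriptomics libraries. A spot is a small barcoded area of a tissue section that can hold several cells or parts of cells, and transcripts were counted as unique molecular identifiers (UMIs). Among spots with at least 300 UMIs, the 80 spots per library with the highest share of UMIs from Avp plus Oxt were taken. These were 80 of 1898 such spots for the flat and 80 of 2625 for the micropillar implant, or 160 of 6464 spots of any depth. The members were thus chosen by their measured Avp and Oxt UMIs, so both genes are given as a description, and the other genes' differences from the remaining spots come from the same spots and are described without a test.

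The study placed flat or micropillar implants in nude mice, which lack a thymus, and its title concerns microtopography and bone regeneration. Each implant was represented by 1 library from formalin-fixed, paraffin-embedded sections, and both libraries share the nude genotype. The sources used here give neither the animals' age, sex and number nor the implant's site and material. With 1 library per implant there is no replicate, so no test could be made, and intervals below are exact 95% intervals that cover counting error only.

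Vasopressin and oxytocin are peptide hormones made by large neurosecretory neurons of the supraoptic and paraventricular nuclei of the hypothalamus, and vasopressin also by smaller neurons of the suprachiasmatic nucleus. Each is translated as a precursor with its carrier neurophysin, cut by convertases in dense-core granules, and released from the posterior pituitary into blood: vasopressin retains water, and oxytocin drives milk ejection and uterine contraction. Most such neurons make chiefly a single peptide of the pair, although the genes are neighbours on the same chromosome.

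In the mm10 build Avp (ENSMUSG00000037727) lies on the minus strand at chr2:130580620-130582554 and Oxt (ENSMUSG00000027301) on the plus strand at chr2:130576173-130577054, so the genes face each other across 3565 bases. The 250 bases before each RefSeq start are shown because this pair of genes defines the spots. They are from RefSeq (GRCm38.p6), 5′ to 3′ on the gene's strand, for Avp at chr2:130582589-130582838 (minus) and for Oxt at chr2:130575919-130576168 (plus). The RefSeq starts differ from the gene bounds given above, and distances below count from the RefSeq starts. Capitals mark an E-box (CACGTG), nuclear receptor sites (TGACC or, on the other strand, GGTCA) and a TATA-like stretch (ATAAA).

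Avp: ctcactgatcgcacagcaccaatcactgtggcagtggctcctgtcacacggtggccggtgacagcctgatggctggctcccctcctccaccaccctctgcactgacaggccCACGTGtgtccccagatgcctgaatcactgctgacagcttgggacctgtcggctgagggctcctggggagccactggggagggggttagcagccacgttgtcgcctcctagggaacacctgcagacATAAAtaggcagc

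Oxt: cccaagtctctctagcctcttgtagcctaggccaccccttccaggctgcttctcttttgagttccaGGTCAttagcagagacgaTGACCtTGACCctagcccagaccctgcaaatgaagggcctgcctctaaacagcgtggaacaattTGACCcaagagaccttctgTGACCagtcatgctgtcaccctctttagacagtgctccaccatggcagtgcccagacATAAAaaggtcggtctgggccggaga

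The Avp window holds 1 E-box, 139 bases before the start, and no TGACC or GGTCA. The Oxt window holds 5 TGACC or GGTCA sites, 184, 166, 160, 102 and 83 bases before the start, and no CACGTG. Both windows hold ATAAA close to the start, 13 bases before it in Avp and 26 in Oxt. Of 32851 RefSeq mouse promoter windows of this length, 6.02% hold CACGTG, 35.2% hold TGACC on either strand and 37.3% hold ATAAA on either strand. These matches describe letters only.

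Avp and Oxt were concentrated in few spots. The 80 flat spots carried 2559 of the library's 2856 Avp UMIs (89.6%, interval 88.4 to 90.7%) and 1191 of 1410 Oxt UMIs (84.5%, 82.5 to 86.3%). The 80 micropillar spots carried 5380 of 6411 Avp UMIs (83.9%, 83.0 to 84.8%) and 3745 of 4619 Oxt UMIs (81.1%, 79.9 to 82.2%). The 10 spots of highest share held 51.9% of all Avp and Oxt UMIs of the flat library and 40.8% of those of the micropillar library. The sets made up 3.53% and 4.87% of the UMIs of the kept spots. In bulk over several cells, as in a spot, fewer cells of a type and less RNA per cell cannot be told apart.

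The share of Avp plus Oxt among a spot's UMIs ran from 0.798% to 25.4% with a median of 1.97% in the flat set, and from 0.795% to 23.4% with a median of 3.14% in the micropillar set. Avp reached 383 UMIs in 1 flat spot (median 9.5, lowest 0) and 1070 in 1 micropillar spot (median 24, lowest 0). Oxt reached 205 (median 6.5, lowest 0) and 311 (median 20, lowest 0). The line between members and other spots fell within a continuous range. The last flat member had 5 Avp and 1 Oxt UMIs among 752 (0.798%), and the next spot 1 Avp and 10 Oxt among 1385 (0.794%). The last micropillar member had 7 and 2 among 1132 (0.795%), and the next spot 15 and 4 among 2393 (0.794%).

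**Figure D1:**
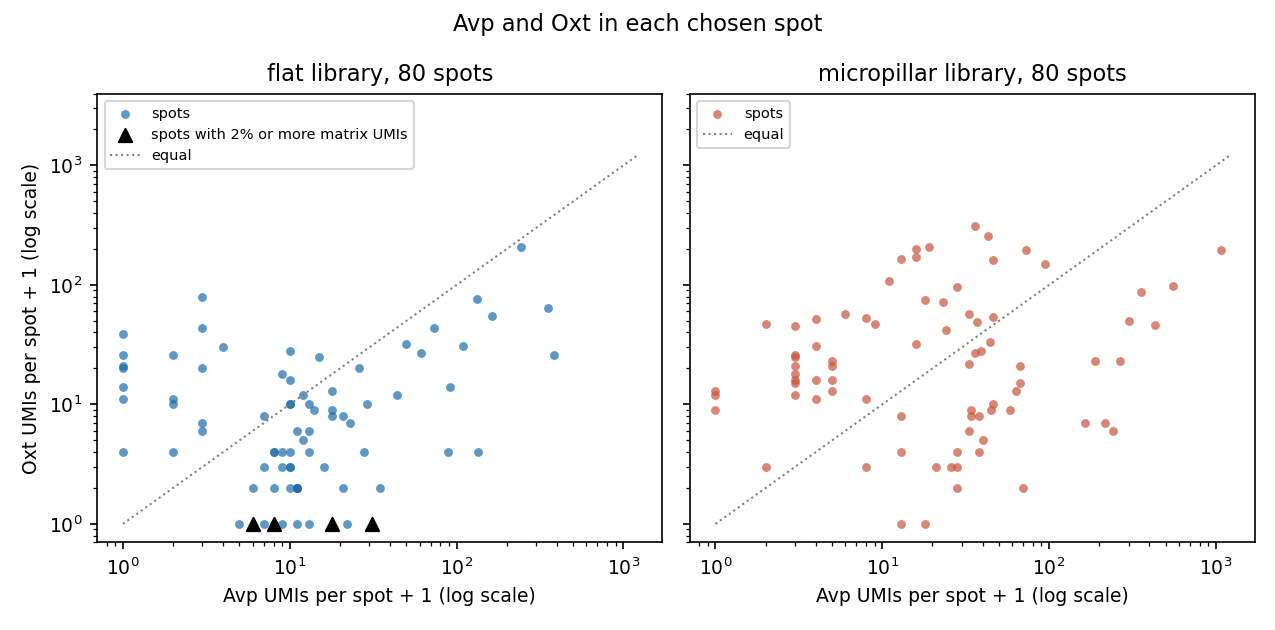
Avp and Oxt UMIs in each of the 80 spots of each library, on log axes of UMIs plus 1, with 1 point per spot. Avp ran up to 383 UMIs in the flat and 1070 in the micropillar set, and spots lay on both sides of the dotted line of equal counts. Triangles mark the 4 flat spots with at least 2% matrix UMIs.

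Outside these sets both transcripts were thinly spread. The other 1818 flat spots held 247 Avp and 201 Oxt UMIs, with at most 12 and 10 in 1 spot. The other 2545 micropillar spots held 974 and 819, with at most 20 and 28 in 1 spot. An Avp UMI was present in 91.25% of flat and 96.25% of micropillar members against 8.14% and 17.0% of other spots. With every spot thinned to 300 UMIs, these shares were 85% and 82.5% against 3.74% and 6.92%. For Oxt the deposited counts gave 86.25% and 97.5% of members and 6.71% and 18.2% of other spots, and thinned counts 72.5% and 81.25% against 2.92% and 7.27%.

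Spots led by genes of tissues that should lack both hormones gave a background. The 80 flat spots led by skeletal muscle genes (median depth 379.5 UMIs) held 4 Avp and 0 Oxt UMIs, those led by epidermal genes (523.5 UMIs) 2 and 1, and those led by bone and fibrous matrix genes (366.5 UMIs) 7 and 0. In the micropillar library the same sets held 6 and 4 (446 UMIs), 9 and 4 (784.5 UMIs) and 7 and 4 (480.5 UMIs). The median depth of members was 935 and 1618.5 UMIs, and that of other spots 856 and 933. Of all UMIs in those sets, Avp and Oxt thus made up 67.4 to 202 per 1000000 in the flat and 193 to 246 in the micropillar library. Sets of 80 spots led by genes of other brain parts ranged more widely, from 35.7 (cortical) to 417 (thalamic) in the flat and from 42.7 (striatal) to 435 (oligodendrocyte) in the micropillar library, where choroid plexus spots were at 432. The spots outside the 80 were at 219 and 611, and those of them with few neural UMIs at 290 and 592. A single UMI outside the members is therefore no sign of a hormone-making cell there, since spots of muscle, skin and matrix held some too. The flat ranks 321 to 640 held 0 Avp or Oxt UMIs, whereas micropillar ranks 321 to 640 still held 525, or 0.138% of their UMIs. Spots with no Avp or Oxt UMI are ordered by depth in that ranking.

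Some spots and labels stood apart. In the flat set 4 spots (382 to 397 UMIs each) took at least 2% of their UMIs from 10 bone and fibrous matrix genes, had 5 to 30 Avp and 0 Oxt UMIs, and had 0 to 3 UMIs from 16 pan-neuronal genes. They held 121 of the 162 matrix UMIs of the flat set, no micropillar spot met that mark, and values that rest on them are given with and without them. Both libraries list 2135 spot barcodes in common, but 0 of these were in both sets of 80, and at the barcodes of the flat members the micropillar library had 0.00892% Avp plus Oxt. The labelled tissue is bone, and these spots instead held transcripts of hypothalamic neurons with few matrix UMIs. The file headers name Space Ranger, the submitters' notes Cell Ranger, and spot positions were not used here.

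Avp and Oxt each stood far above the other spots, as the choice of spots requires. Levels are given as UMIs per 1000000 (CPM), with Avp and Oxt left out of the totals, so that 1 UMI in the set was worth 14.1 CPM for the flat and 7.08 CPM for the micropillar implant. Avp was at 36069 CPM against 121 in other flat spots, and at 38089 against 332 in other micropillar spots. Oxt was at 16787 against 98.4, and at 26514 against 279. There were 2.15 Avp UMIs (2.01 to 2.30) for each Oxt UMI in the flat set and 1.44 (1.38 to 1.50) in the micropillar set. In the other spots the ratios were 1.23 (1.02 to 1.49) and 1.19 (1.08 to 1.31). Without the spot richest in Avp in each library, the members' ratios were 1.87 and 1.21.

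Beyond Avp and Oxt, 2203 genes had enough UMIs to enter, meaning 10 observed in the 80 spots or 10 that the level of the other spots would give there, in both libraries. Of these, 75 (3.40%) were at 2-fold or more in the 80 spots in both libraries, and 141 (6.40%) were lower by 2-fold or more in both. The median log2 ratio to the other spots over all 2203 genes was 0.14 for the flat and 0.05 for the micropillar implant. Scaling the sets by edgeR's TMM factors moved these medians by -0.29 and -0.13 and the counts to 53 higher and 181 lower, and DESeq2 size factors gave 55 and 177. The 12 highest and 12 lowest genes, ranked by the ratio nearer to 0 of the pair of libraries, are named below. A gene that is low elsewhere could enter only through its level in the 80 spots, so counts and medians of a list's entered genes are descriptions, and sums over whole lists stand beside them.

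The highest of all was Otp, a homeobox factor needed for the formation of neuroendocrine neurons of the paraventricular and supraoptic nuclei. Otp had 17 UMIs in the 80 flat spots (240 CPM, against 10.8 in other spots) and 52 in the 80 micropillar spots (368 CPM, against 17.7), a 22.3-fold and a 20.8-fold difference (log2 4.35, interval 3.47 to 5.46, and 4.30, interval 3.79 to 4.96). It was detected in 15 and 30 of 80 spots. Pou3f2 (Brn2), a POU factor of the same neurons, was at 240 CPM against 78.8 and 219 against 58.3 (log2 1.59 and 1.89). All 10 listed factors of vasopressin and oxytocin neurons together summed to 902 against 319 CPM and 850 against 318 CPM (log2 1.50, 1.11 to 1.87, and 1.42, 1.13 to 1.69). Of these 10 factors 3 entered, Otp among them through its level in the 80 spots alone, so that the count of 2 past the fold and the median of the 3 (1.59 and 1.89) only describe them. Arnt2, the partner of Sim1, was not at 2-fold (-0.65 and -0.31), and Sim1 itself had 0 and 2 UMIs. Rasd1 had 13 UMIs in the flat and 3 in the micropillar spots, for log2 ratios of 3.97 and -0.67.

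Other hypothalamic factors were sparse. Of 31 listed transcription factors of the hypothalamus only Six3 entered, with log2 ratios of 1.30 (21 UMIs) and -0.38 (21 UMIs), and the list's summed level was 550 against 282 CPM for the flat and 389 against 394 CPM for the micropillar implant. Among 16 genes of the suprachiasmatic nucleus, the circadian pacemaker, Zfhx3 and Syt10 entered. Zfhx3 was at 240 against 46.0 CPM and 149 against 78.7 CPM, and Syt10 at 183 against 38.2 and 92.0 against 49.1. Their ratios exceeded 2-fold in the flat library alone. That list's sum was at a log2 ratio of 1.80 (1.37 to 2.20) in the flat and 0.74 (0.37 to 1.09) in the micropillar set.

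Few other peptide precursors joined Avp and Oxt. Trh, the precursor of thyrotropin-releasing hormone, had 14 UMIs in each set (197 against 12.7 CPM and 99.1 against 7.50 CPM, or 15.5-fold and 13.2-fold). Somatostatin (Sst), which inhibits growth hormone release, was the most abundant with 100 and 252 UMIs (1409 against 621 CPM and 1784 against 533 CPM, log2 1.18 and 1.74). Of 34 listed precursors 5 entered, Trh and Sst higher, Penk (log2 -1.88 and -1.03) and Cck (-3.29 and -4.02) lower, and Npy not past 2-fold in both (-2.12 and -0.92). The list's median, -1.88 and -0.92, rests on these 5 genes and had the opposite sign to its summed log2 ratio, 0.44 and 0.82. Both medians turned positive with 40 spots per library (1.50 and 2.23), taken over the genes that entered in that setting, which need not be the same 5. The positive sums rest on Sst, which gave 100 of the list's 172 flat and 252 of its 383 micropillar UMIs. In the other spots Sst gave 1268 of 3657 and 1563 of 4515. Prodynorphin (Pdyn), which vasopressin neurons are known to make, had 5 and 17 UMIs (log2 1.02 and 1.76) and was under the minimum to enter.

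The machinery that cuts and stores peptides was higher as a sum and only in part gene by gene. The 18 listed genes of peptide processing and dense-core granules summed to 13489 against 8610 CPM for the flat and 15328 against 8344 CPM for the micropillar implant, log2 ratios of 0.65 (0.55 to 0.74) and 0.88 (0.81 to 0.94). Of 15 that entered, Resp18 and Scg2 were at 2-fold in both libraries and none was lower, with medians of 0.41 and 0.60. Resp18, a protein of secretory granules, was at 1057 against 183 CPM and 1296 against 254 CPM (5.77-fold and 5.09-fold). Secretogranin II (Scg2) was at 747 against 199 and 758 against 250. Pcsk1n (proSAAS), an inhibitor of prohormone convertase 1, was the most abundant at 429 and 973 UMIs, with log2 ratios of 0.82 and 1.06. The convertase Pcsk2 was the lowest of the list, at -0.59 and -0.63.

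Imprinted genes, expressed from a single parental copy, were the list with the most genes higher by 2-fold or more in both libraries. Of 20 listed, 19 were in the files, 7 entered and 6 were at 2-fold or more in both libraries (Nnat, Dlk1, Ndn, Peg3, Nap1l5 and Grb10), with medians of 1.87 and 1.52. Over all 2203 genes entered, 3.40% were at 2-fold or more in both. Dlk1 entered through its level in the 80 spots alone, so this count and these medians only describe the genes. The list's summed level was 11981 against 3643 CPM for the flat and 11526 against 4802 CPM for the micropillar implant. Neuronatin (Nnat), a small membrane protein, was at 2227 against 283 CPM and 1904 against 438 CPM, and was seen in 60 and 73 of 80 spots. Dlk1, a Notch-related membrane protein that is paternally expressed, was at 352 against 15.7 CPM and 396 against 48.7 CPM (22.5-fold and 8.13-fold). Ndn (necdin), of the Prader-Willi region, had log2 ratios of 2.21 and 1.52, and Peg3 1.87 and 1.31. Gnas, the gene of the stimulatory G protein subunit, was the most abundant (283 and 558 UMIs) and was past 2-fold in the flat library alone (1.15 and 0.78).

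The other genes among the 12 highest came from no single list. Baiap3, a C2-domain protein of dense-core vesicle traffic, was at 606 against 67.5 CPM and 729 against 122 CPM. Ahi1, a protein of the primary cilium, was at 719 against 147 and 878 against 188. Zcchc12, a transcriptional co-activator, was at 705 against 90.1 and 750 against 179. Cbln1, a secreted organiser of synapses, had 14 and 37 UMIs (10.9-fold and 5.45-fold), Tmem255a 43 and 97 (6.25-fold and 5.01-fold), AW551984 11 and 13 (16.7-fold and 6.59-fold) and Vwa5b1 11 and 14 (8.56-fold and 4.41-fold). Each of the 12 was higher in both libraries, as their choice required.

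**Figure D2:**
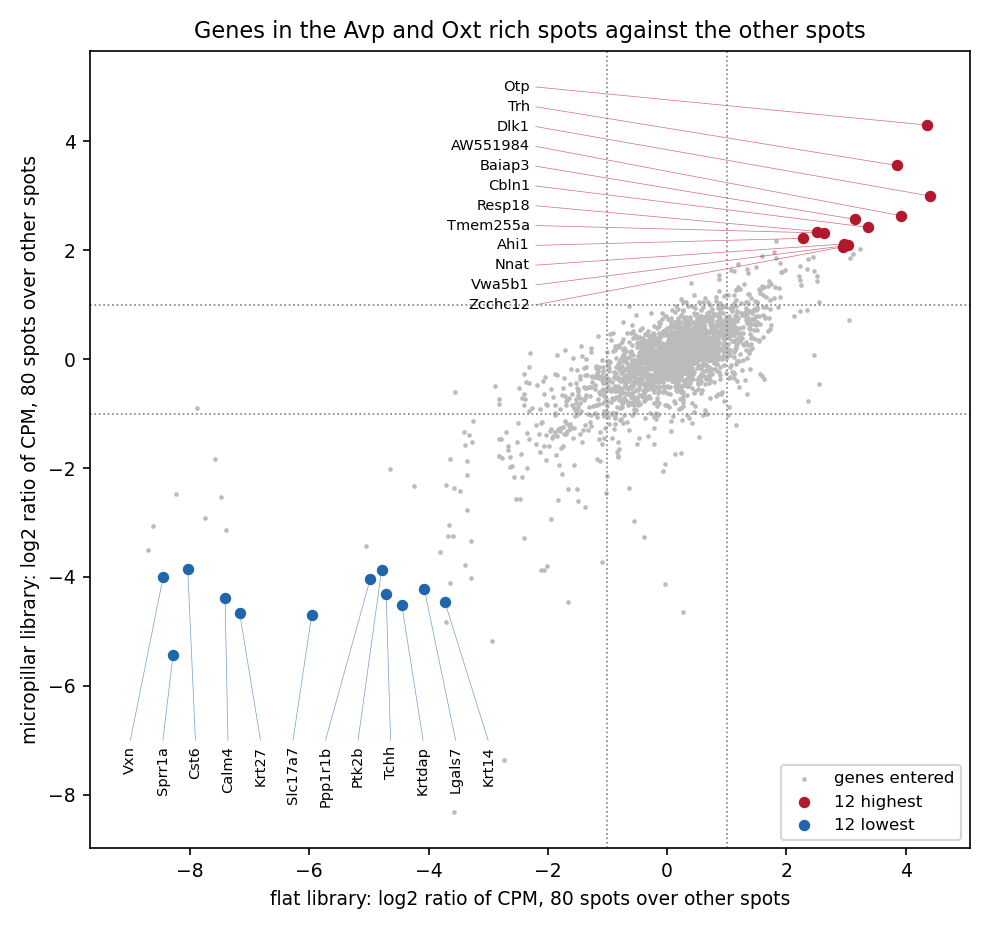
Log2 ratio of CPM, 80 spots over other spots, in the flat (x) and micropillar (y) library for 2203 genes, 1 point per gene, with the 12 highest and 12 lowest named. Otp lay at 4.35 and 4.30, dotted lines mark 2-fold, and genes with 0 UMIs in a set are placed by the pseudocount of 1 CPM.

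Receptors and transmitter genes were detected at low counts. None of 44 listed peptide and steroid receptors entered, and their sum was at 874 against 605 CPM and 942 against 555 CPM. The calcitonin receptor (Calcr) had 9 and 8 UMIs (log2 3.78 and 2.45), and Glp1r, the receptor of glucagon-like peptide 1, had 3 and 7 (3.87 and 3.41). Among transmitter genes the glutamate transporter Slc17a6 had 9 and 30 UMIs (127 against 22.0 CPM and 212 against 50.4 CPM), and the cortical type Slc17a7 had 1 and 3 (14.1 against 938 CPM and 21.2 against 578 CPM). Slc17a7 alone of the 3 entered transmitter genes was past the fold. Gad2, an enzyme that makes GABA, was at 254 against 127 CPM and 262 against 169 CPM.

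General neuronal genes were not higher in these spots. Of 16 pan-neuronal genes, all of which entered, 0 were past 2-fold in both libraries in either direction, with medians of -0.70 and -0.22 against 0.14 and 0.05 for all genes. With spots thinned to 300 UMIs the pan-neuronal medians were 0.058 and 0.050. Thinning changes which genes enter, so these medians need not cover the same 16 genes and are not a depth correction of the values above. The synaptic protein gene Snap25 was at 1240 against 3741 CPM and 1657 against 2972 CPM, while Stmn2, of growing axons, was at 1522 against 858 and 1494 against 1140. Cortical and striatal genes were low in these spots: 5 of 6 cortical excitatory genes (medians -3.06 and -2.75, or -3.06 and -2.46 with a gene at 0 UMIs set to its bound) and 7 of 7 striatal genes (medians -3.28 and -2.43, or -2.82 and -2.43 at the bound) were lower by 2-fold or more in both. Thalamic genes, none of which entered, summed to 324 against 190 CPM (flat) and 227 against 340 CPM (micropillar), log2 ratios of 0.77 (0.10 to 1.38) and -0.59 (-1.14 to -0.08). Ppp1r1b (DARPP-32), of striatal projection neurons, had 4 and 9 UMIs (56.4 against 1806 CPM and 63.7 against 1060 CPM).

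Oligodendrocyte and astrocyte genes summed to levels near those of the other spots, with log2 ratios of -0.10 and 0.10 in the flat and -0.29 and 0.0048 in the micropillar set. None of 6 entered oligodendrocyte genes was past the fold, and of 9 astrocyte genes Itih3 (log2 3.07 and 1.85) and Agt, angiotensinogen (2.51 and 1.43), were higher and the glutamate transporter Slc1a2 (-1.72 and -1.15) was lower. Microglial genes were at 662 against 697 CPM in the flat and at 304 against 852 CPM in the micropillar library (log2 -0.07, -0.52 to 0.35, and -1.48, -1.95 to -1.05). Without the matrix-rich spots the flat microglial sum was 490 CPM (log2 -0.51, -1.04 to -0.02), under that of the other spots. Choroid plexus genes had 5 and 9 UMIs in all, and 9 anterior pituitary genes, among them the pituitary hormones, had 0 in both sets. Ependymal and tanycyte genes, which mark the wall of the third ventricle, summed to 550 against 233 CPM for the flat and 283 against 298 CPM for the micropillar implant.

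Genes of skin were sparse in these spots, and genes of bone and fibrous matrix were sparse in the micropillar set. All 9 entered epidermal and hair genes were lower by 2-fold or more in both libraries (medians -3.73 and -4.46, or -3.71 and -4.32 with genes at 0 UMIs set to their bound, from 15 and 48 UMIs). Sprr1a, of the cornified envelope, had 0 UMIs in the flat set, at least 7.35-fold lower than in other spots against a floor of 3 UMIs over the set, and 1 in the micropillar set (7.08 against 349 CPM). Krt27, Calm4 and Cst6 also had 0 UMIs in the flat set, at least 3.38-fold, 4.01-fold and 6.19-fold lower, and 1 to 3 in the micropillar set. Vxn, of the 12 lowest genes but not listed as a gene of skin, had 0 UMIs in the flat set, at least 8.24-fold lower. It had 2 in the micropillar set. Krt14, the basal keratin, had 4 and 7 UMIs, Tchh, of hair roots, 2 and 8, Krtdap 2 and 4, Lgals7 2 and 4, and the neuronal kinase Ptk2b 1 and 3. Bone and fibrous matrix genes had 162 UMIs in the flat set, or 41 without the 4 matrix-rich spots, and 76 in the micropillar set. The flat sum, 2283 against 2779 CPM, was close to that of the other spots (log2 -0.28), and the micropillar sum, 538 against 5020 CPM, was not (log2 -3.22). Without the 4 spots the flat sum was 590 CPM (log2 -2.23). Against other spots with neural genes alone, the flat median of the 5 entered matrix genes was 2.63 in place of -0.04. Skeletal muscle genes had 14 and 10 UMIs. Globin genes had 91 and 221, and were higher than in the other spots (1283 against 967 CPM and 1565 against 945 CPM, log2 0.41 and 0.73). The 5 glandular secretion genes had 0 and 17 UMIs (0 against 0.489 CPM and 120 against 1006 CPM in the other spots), and neutrophil granule genes 1 and 3.

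**Figure D3:**
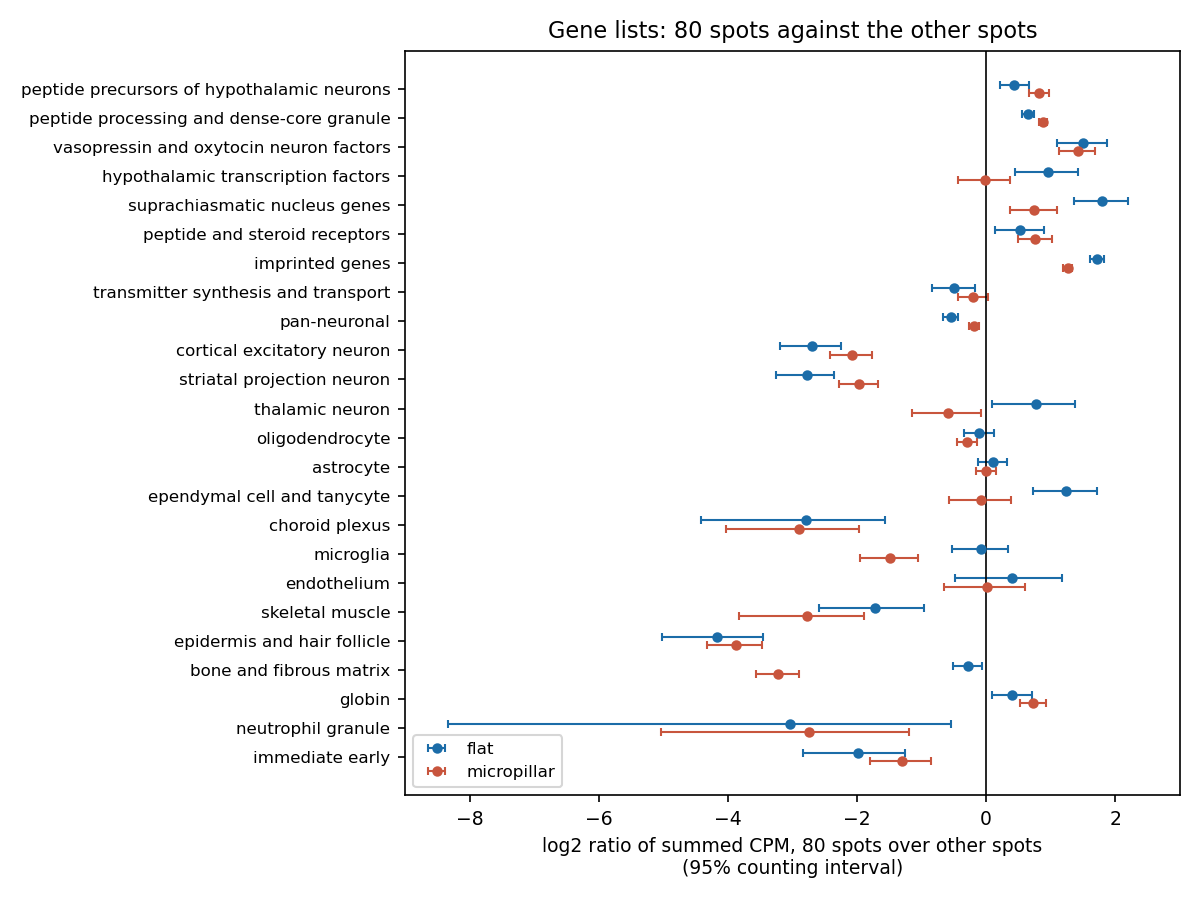
Summed log2 ratio of each gene list, 80 spots over other spots, in the flat and micropillar library, with bars for the 95% counting interval. Imprinted genes lay at 1.72 and 1.26, and epidermal genes at -4.17 and -3.88.

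The other spots were of mixed kind: after thinning, 939 of 1818 for the flat and 1336 of 2545 for the micropillar implant had at least 3 pan-neuronal UMIs. The members were therefore also set beside 80 spots per library led by thalamic genes and 80 led by striatal genes, from which members were left out. Pan-neuronal levels were alike in size: 8556 CPM in the flat members, 7649 in thalamic-type and 8944 in striatal-type spots, and 10230, 11551 and 9059 CPM in the micropillar library. The other spots as a whole were at 12529 and 11679 CPM. Otp and AW551984 had 0 UMIs in all 4 comparison sets. Trh had 0 to 2, and Dlk1 0 to 2. These genes were named for being low in the other spots, and the comparison sets are part of those spots. Low counts there thus follow from the choice, and sets of this size would hold few such UMIs at the other spots' levels. Imprinted genes summed to 4768 and 6201 CPM in thalamic-type spots and to 1612 and 1707 CPM in striatal-type spots, under the 11981 and 11526 CPM of the members. Peptide processing genes summed to 6775 and 8486 CPM, and to 8005 and 7040 CPM, against 13489 and 15328 CPM. The 10 factors of vasopressin and oxytocin neurons, Otp among them, summed to 902 and 850 CPM in the members. They were at 139 and 397 CPM in thalamic-type and 133 and 142 in striatal-type spots. Peptide and steroid receptors were at 874 and 942 CPM in the members, 457 and 397 in thalamic-type and 453 and 370 in striatal-type spots. Some other lists were not highest in the members. Hypothalamic transcription factors were at 550 and 389 CPM in the members, 477 and 639 in thalamic-type and 574 and 668 in striatal-type spots. Peptide precursors, Avp and Oxt left out, were at 2424 and 2712 CPM in the members, 1192 and 1632 in thalamic-type and 3048 and 3271 in striatal-type spots. Penk and Tac1 are on both the precursor list and the striatal list that chose the striatal-type spots. The precursor sum of those spots is thus raised by their choice. Cbln1 was not lower everywhere, with 312 CPM in the thalamic-type micropillar spots against 262 CPM in the members. The thalamic-type spots also held genes of epidermis (13153 and 3973 CPM), bone and fibrous matrix (6537 and 3150 CPM) and choroid plexus (1888 and 85.1 CPM). In the flat library each of these sums was above that of the other spots (3818, 2779 and 486 CPM). In the micropillar library each was below it (5005, 5020 and 474 CPM). The thalamic-type spots are thus of mixed tissue, and the part of this in the comparison was not tested.

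Some gene groups followed Avp and Oxt through the ranks and others did not. From ranks 1 to 20 through ranks 61 to 80, Avp plus Oxt went from 13.4% to 1.01% of UMIs for the flat and from 11.5% to 1.25% for the micropillar implant. Over the same bins imprinted genes stayed between 11559 and 12482 CPM in the flat library and between 9803 and 12565 CPM in the micropillar library. In ranks 81 to 160, outside the sets, they were still at 9535 and 9426 CPM, and in ranks 161 to 320 at 4366 and 5783 CPM. The 10 factors of vasopressin and oxytocin neurons went down with the ranks, from 1843 CPM (1269 to 2588) to 586 CPM (281 to 1077) in the flat set and from 1135 CPM (859 to 1470) to 462 CPM (253 to 775) in the micropillar set. Otp was at 391, 267, 116 and 176 CPM through the 4 flat bins of members and at 498, 467, 315 and 99.0 CPM through the micropillar bins. It was at 157 and 187 CPM in ranks 81 to 160 and at 13.4 and 58.1 CPM in ranks 161 to 320. The flat bins hold 2 to 7 Otp UMIs each and their intervals overlap, whereas the intervals of the top and bottom micropillar bins of members (322 to 735 and 20.4 to 289 CPM) do not.

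**Figure D4:**
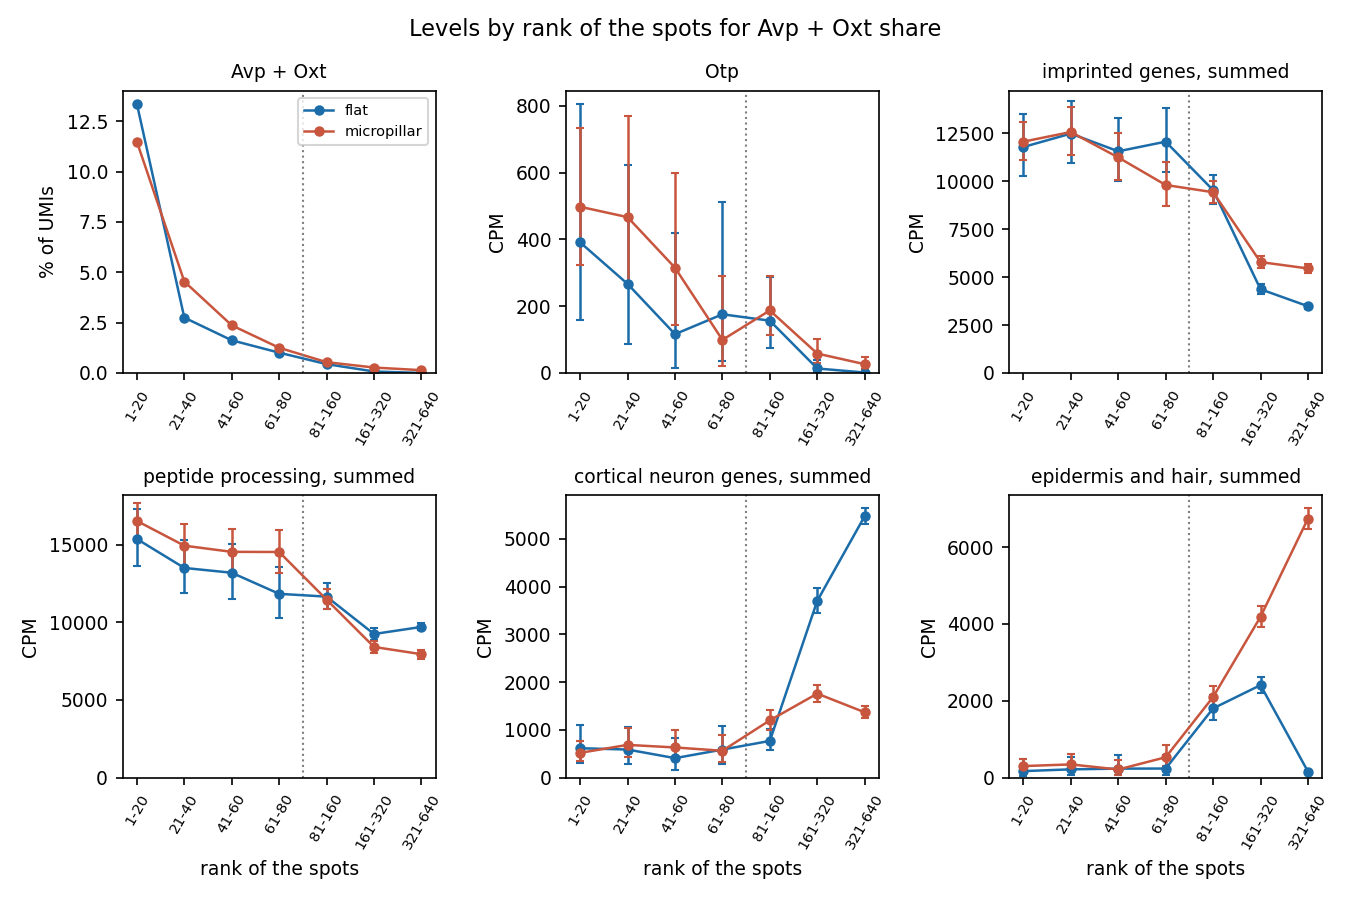
Levels by rank of the spots' Avp plus Oxt share, ranks 1 to 640, per library, with 95% counting intervals. Avp plus Oxt dropped from 13.4% and 11.5% of UMIs in ranks 1 to 20 to 0.440% and 0.536% in ranks 81 to 160, while imprinted genes were still at 9535 and 9426 CPM there.

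The micropillar spots were compared with the flat spots over 2687 genes with at least 20 UMIs over both sets. Of these, 125 (4.65%) were at 2-fold or more in the micropillar and 74 (2.75%) in the flat spots. With TMM factors the counts were 177 and 59, and with DESeq2 size factors 123 and 74. Among the remaining spots of the same libraries, 11 and 1 of the same 2687 genes were past that fold. Counts were low: the genes called higher had a median of 26 UMIs over both sets, 118 of the 125 had fewer than 50, and 68 of the 74 called lower did. With every spot thinned to 300 UMIs, 18 and 17 genes were past the fold. No replicate check exists for any of these differences.

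The genes that moved most rested on few UMIs or few spots. Abhd16a had 1 UMI in the flat and 19 in the micropillar spots (14.1 and 135 CPM, log2 3.17, interval 0.60 to 8.63), and Ppp1r12b 2 and 22 (log2 2.42, interval 0.44 to 5.60). Fgfr1, a growth factor receptor, had 2 and 20 (log2 2.29), Dusp3 3 and 27, Tmem203, Slc23a2 and Adipor1 2 and 18 each, and Dact3 and Cgref1 3 and 25 each. At the other end Col1a2, a chain of type I collagen, had 87 UMIs in the flat and 19 in the micropillar spots (1226 and 135 CPM, log2 -3.18), and Col3a1, of type III collagen, 30 and 16 (423 and 113 CPM, log2 -1.89). Without the 4 matrix-rich flat spots Col1a2 had 8 and Col3a1 7 flat UMIs, and the signs turned, to 0.22 and 0.17. Ramac had 19 and 7 UMIs (log2 -2.41), Rarres2 (chemerin) 16 and 6 (-2.38) and Arhgap36 19 and 9 (-2.05). Sirt7, Ncbp1, Adgrg1, Ap3s2 and Oxr1 followed, with log2 ratios from -1.87 to -1.68 and 7 to 16 UMIs a set.

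For leading genes of the set the counting interval of the difference between the libraries spanned 0. Otp was at a log2 ratio of 0.62 (-0.19 to 1.50), Nnat at -0.23 (-0.51 to 0.07) and Resp18 at 0.29 (-0.10 to 0.70), micropillar over flat. The imprinted sum was at -0.06 (-0.18 to 0.07) within the sets and 0.40 in the other spots. Avp itself was at 0.08 (0.01 to 0.15) and Oxt at 0.66 (0.56 to 0.75), against 1.45 and 1.50 in the other spots. The peptide processing sum was at 0.18 (0.07 to 0.30) and the pan-neuronal sum at 0.26 (0.12 to 0.40). Microglial genes summed to 662 CPM in the flat and 304 CPM in the micropillar spots (log2 -1.12, -1.75 to -0.49), and to 490 CPM in the flat spots without the matrix-rich 4 (log2 -0.69, -1.37 to 0.0078). Median depth, 935 against 1618.5 UMIs, also differed between the sets, and its part in these values was not tested.

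The spots differed among themselves in which hormone they carried. In 47 flat spots Avp made up at least 2/3 of the Avp plus Oxt UMIs, in 19 Oxt did, and 14 were mixed. In the micropillar set these were 32, 37 and 11. Both transcripts were detected in 62 and 75 of 80 spots. Over the 80 spots of a library, the shares of Avp and Oxt had a Spearman rho of 0.04 and -0.16, a description of spots that share a library and a lower limit on their sum.

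Each set was then divided into the 40 spots with the higher and the 40 with the lower Avp share of Avp plus Oxt, called Avp-leaning and Oxt-leaning. The cut fell between Avp shares of 70.8% and 72.7% in the flat and of 38.5% and 41.2% in the micropillar set. These names are thus relative to each set. Oxt-leaning flat spots include some with mostly Avp, up to a share of 70.8%, so the division is not alike in the libraries. The Avp-leaning spots held 1777 Avp and 258 Oxt UMIs in the flat and 4820 and 879 in the micropillar set, and the Oxt-leaning spots 782 and 933, and 560 and 2866. Median depth was 822 against 1010 UMIs in the flat and 1920 against 1469.5 in the micropillar set. Of 1811 genes with at least 10 UMIs in each set of 80, 13 (0.718%) were higher by 2-fold or more in the Avp-leaning spots of both libraries and 16 (0.883%) in the Oxt-leaning spots of both.

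Somatostatin was higher in the Oxt-leaning spots. Sst had 13 UMIs in Avp-leaning and 87 in Oxt-leaning flat spots (402 and 2254 CPM, log2 -2.48, -3.45 to -1.64), and 87 and 165 in the micropillar set (1015 and 2973 CPM, log2 -1.55, -1.94 to -1.17). Neither library's interval reached 0, and without the 4 matrix-rich flat spots the flat value was -2.42. Rab3b, a vesicle GTPase, had 1 and 12, and 14 and 26 UMIs, and Stk3 1 and 11, and 3 and 7. 1110038F14Rik had 4 and 13, and 6 and 12, and Cpt1c, a neuronal carnitine palmitoyltransferase, 1 and 9, and 4 and 7. Otp did not lean one way, with 10 and 7 UMIs in the flat and 28 and 24 in the micropillar set.

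Myelin genes were higher in the Avp-leaning spots. The 13 oligodendrocyte genes summed to a log2 ratio of 0.92 (0.44 to 1.40) in the flat and 1.50 (1.10 to 1.92) in the micropillar set, Avp-leaning over Oxt-leaning, and to 0.95 in the flat set without the matrix-rich spots. Mobp, a myelin protein, headed the named genes with 14 and 5, and 15 and 3, followed by Igf2 (7 and 3, 13 and 2), Nrxn3, a synaptic adhesion protein (8 and 4, 17 and 4), Fut8 (8 and 3, 11 and 3) and Map2k2 (8 and 3, 17 and 5). Suprachiasmatic genes leaned the same way, at 0.95 and 0.80, and Rgs16, a circadian regulator of G protein signalling, had 8 and 0, and 6 and 1 UMIs. Gad2 had 11 and 7 in the flat and 35 and 2 in the micropillar set. Globin genes, whose near-identical copies can share reads, leaned to the Avp side by 0.61 and 2.96. Flat matrix genes leaned to it by 3.08, and by 0.39 without the 4 matrix-rich spots. Whether blood or depth bears on these values was not tested.

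Imprinted genes leaned little, at log2 ratios of 0.11 and -0.03. Peptide processing genes were lower in the Avp-leaning spots by a small margin, at -0.20 (-0.39 to -0.01) and -0.19 (-0.31 to -0.06). Pcsk1n was at 5256 against 6710 CPM in the flat and 6403 against 7639 CPM in the micropillar set (log2 -0.35, -0.64 to -0.07, and -0.25, -0.44 to -0.07).

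**Figure D5:**
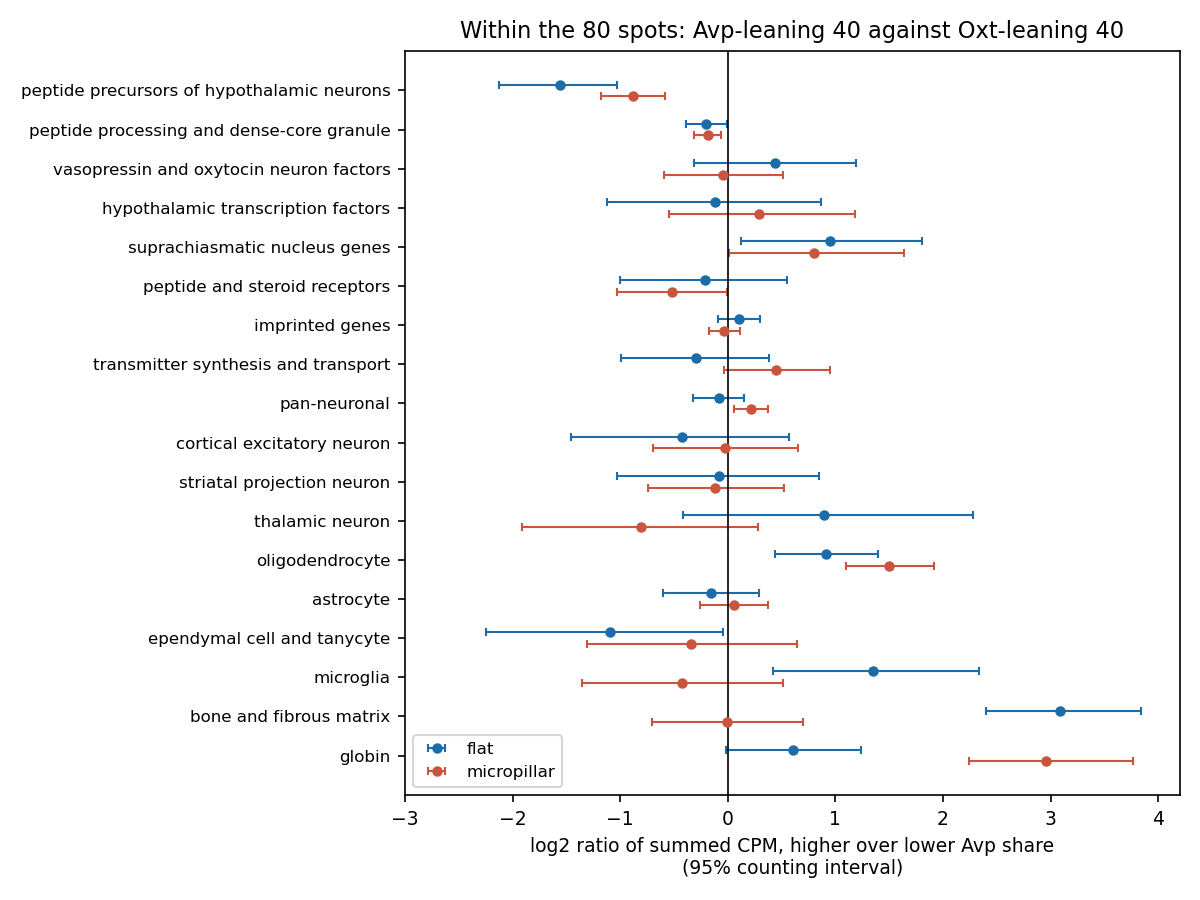
Log2 ratio of summed list levels, the 40 Avp-leaning over the 40 Oxt-leaning spots, per library, with 95% counting intervals. Oligodendrocyte genes lay above 0 (0.92 and 1.50) in both libraries and imprinted genes near 0 (0.11 and -0.03). Peptide precursors lay below 0 (-1.56 and -0.88), values that rest in large part on Sst. Of precursor UMIs, Sst gave 87 of 134 (flat) and 165 of 208 (micropillar) in the Oxt-leaning spots. In the Avp-leaning spots it gave 13 of 38 and 87 of 175.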

How the data were processed

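For each of 2 libraries a matrix of UMI counts by gene and spot was deposited by the authors without normalisation, as its whole-number values show. Per the file headers the matrices were made with Space Ranger 2.0.1, per the submitters' processing notes with Cell Ranger 7.2.0 on mm10, while a directional mRNA library kit is named in the labels. These sources differ on the upstream tool. Aligner settings and any probe set were not stated. The libraries hold 2286295 and 3188977 UMIs over 3161 and 3303 spots.

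Of 19465 gene rows, 11 symbols stood on 2 rows, and for these the row with more counts was used. This left 19454 genes, and 19441 matched GENCODE M21. UMIs were summed over spots and scaled to CPM without Avp and Oxt, and log2 ratios used a pseudocount of 1 CPM. Intervals are exact (Clopper-Pearson for shares, Poisson for levels, binomial for ratios). A fold of 2 marked a gene, with no test, since spots of a section are not replicates. The text names Avp, Oxt, the 12 highest and 12 lowest genes by the ratio nearer to 0 of both libraries, per list the most abundant, highest and lowest members, the 10 highest and lowest between implants, and the 5 highest and lowest between Avp-leaning and Oxt-leaning spots. Other genes of the lists were named after their values were seen.

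The members and all 26 gene lists were chosen with earlier results of these data known, and the glandular list was chosen from these libraries. No doublet caller was run and spot positions were not used. Alternatives covered the number of spots, minimum UMIs, the ranking measure, scaling, spot weights, gene minimum, pseudocount, thinning and comparison spots, and leaving out matrix-rich spots or the spot richest in Avp, both added after the data were seen. Code was tested on simulated data. Tools were Python 3.11.15 (numpy 2.4.6, scipy 1.17.1, pandas 2.3.3, matplotlib 3.10.9) and R 4.3.3 with edgeR 4.0.16 and DESeq2 1.42.0, the R packages for scaling factors only. Some items are not reported here.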

Additional observations from a re-analysis of the deposited data

Results flagged for a closer look

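Spots with fewer than 300 UMIs, which entered no comparison, held Avp plus Oxt at 0.0406% of their UMIs for the flat and 0.110% for the micropillar implant. The genes Oxr1 and Ramac moved in opposite directions in the libraries when the 80 spots were set against the other spots. Oxr1 had log2 ratios of 1.02 (flat) and -1.03 (micropillar), and Ramac of 1.15 and -1.21. These differences were not tested, and rest on 7 to 19 UMIs in a set of 80 spots.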

How the results depend on the processing

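No paired analysis was possible because each implant had 1 library and the labels give no replicate numbers. Of 90 counts and shares recomputed under alternatives, 60 stayed within the limits set for them and 30 moved. Of 1068 recomputed values of named genes, 1050 were at 2-fold or more in the main direction, 83 left their counting interval without changing sign and 7 changed sign. These genes were named for extreme ratios in the same spots, so the first count follows in large part from that choice. Of 600 recomputed list medians, 409 stayed within the width of their list's counting interval, and 45 had the other sign, among them the flat precursors below, flat bone and fibrous matrix (2.63 against neural spots) and flat transmitter genes (-2.35 with 40 spots). Each list median was taken over the genes that entered in its setting, so a change can come from the genes let in or left out. The medians of imprinted, peptide processing, cortical, striatal and epidermal genes kept their direction in every setting run. With 40 spots per library, 81 genes were lower than in other spots, 78 were higher in micropillar than in flat spots, the sets held 77.2% and 73.0% of Avp and Oxt UMIs, and the flat median of peptide precursors was 1.50. With 160 spots, 116 genes were higher than in other spots, 208 and 131 were higher and lower in micropillar spots, the sets held 94.5% and 88.0%, and that median was 0.94. A minimum of 500 UMIs per spot gave 85.4% held in the flat library. Ranking spots by the number of Avp and Oxt UMIs gave 193 genes higher in micropillar spots, 83.6% held in the micropillar library, and 0.61 for Col3a1 between implants. The mean of per-spot CPM gave 116 genes lower in micropillar spots. A minimum of 5 UMIs per gene gave 152 genes higher and 255 lower than in other spots, and 448 and 286 between implants. A minimum of 1 UMI gave 486, 846, 3170 and 1843, and in both the flat precursor median was 1.10. Thinning to 300 UMIs gave 35 and 27 genes, 18 and 17 between implants, a flat precursor median of 1.83, and 0.0039 for Arhgap36 and 1.57 for Adgrg1 between implants. Against neural spots alone, the flat log2 ratios of Tchh and Krt14 were 0.065 and 0.62. Without matrix-rich spots, a choice made after seeing the data, the flat set held 86.5%, and Col1a2 and Col3a1 stood at 0.22 and 0.17 between implants. Without the spot richest in Avp, also added later, the sets held 78.3% and 71.3%, with 1.87 and 1.21 Avp UMIs per Oxt UMI. Lower minimums let in genes of fewer UMIs and thinning lets in fewer genes, and for the other changes the cause was not tested. The comparison of implants is limited by the single library each, by genes with few UMIs and by the unequal depth of the sets.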
